A study of Mus musculus with 15 samples.

Results

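Homeostatic microglia genes are the genes that mark a resting brain microglial cell. The set described here was chosen by symbol from a list of 8 such genes: Olfml3, Golm1, Selplg, Mef2c, Csf1r, Cx3cr1, Entpd1 and Siglech. The table of normalized read counts held 7 of the 8 among its 11201 genes, and Siglech, a sialic acid-binding receptor of microglia, was not analysed here. The cells were ESdM, microglia derived from C57BL/6-ATCC mouse embryonic stem cells and grown in N2 medium, with no neurons or astrocytes named in the labels. The 15 libraries were 6 of untreated cells and 3 each of cells stimulated for 24 h with LPS+IFNg (lipopolysaccharide at 500 ng/ml with interferon gamma at 20 ng/ml), with IL4 (interleukin 4, 100 U/ml) or with TGFb (transforming growth factor beta, 50 ng/ml). All groups shared the cell source, the medium and the strain. Whether the replicate libraries are separate cultures is not in the labels, so each p-value rests on library-to-library variation that could be technical.

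Microglia settle in the brain early in development and are kept alive by CSF1 receptor signalling, through the ligands CSF1 and IL34. In the brain TGF-beta is known to hold them in a resting state with a gene programme of surface receptors and secreted proteins, and that programme is known to weaken in culture and under inflammatory stimuli. Members of the set act at different places: OLFML3 is secreted, CX3CR1, CSF1R and PSGL-1 (from Selplg) are receptors or ligands on the surface, CD39 (from Entpd1) is a surface enzyme, GOLM1 sits in the Golgi, and MEF2C is a transcription factor.

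The libraries held between 2682564 and 18676181 reads, recovered from the steps in the values, and the lowest value the table can hold is 1. Of 14 macrophage and microglia markers 11 were in the table, with a summed level of 26828 to 29645 in the untreated libraries, 29435 to 33871 with LPS+IFNg, 32210 to 33105 with IL4 and 35186 to 36924 with TGFb. The defining microglial markers P2ry12 and Sall1 were not in the table, while Tmem119 was, and Adgre1 was there under its older symbol Emr1. No marker from the lists for embryonic stem cells, neurons, fibroblasts or lymphocytes was in the table. Of 8 astrocyte markers 3 were present (summed level 1446 to 1612 untreated and 1678 to 1899 with TGFb), with Gfap and Aqp4 absent. Of 10 oligodendrocyte markers 3 were present (166 to 239 untreated and 204 to 224 with TGFb), with Mog and Olig2 absent, and of 8 endothelial markers only Pecam1 was, at 15.8 or below. Of 8 dendritic cell markers Zbtb46, Bst2 and Tcf4 were present, and Flt3 and Xcr1 were absent. Their sum was 592 to 685 untreated and 2662 to 2826 with LPS+IFNg. Most of it was Bst2 (mean 426 untreated and 2409 with LPS+IFNg), beside Tcf4 (203 and 340) and Zbtb46, which was lower (16.2 and 12.5). The part of these markers in the results below was not tested. In bulk RNA, fewer cells of a type and less RNA per cell cannot be told apart.

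The calls among the 7 genes against untreated cells were rises with TGFb and falls with LPS+IFNg and IL4. With TGFb 4 of the 7 genes rose (Olfml3, Cx3cr1, Selplg and Golm1) and 0 fell, where 47.5% of the 11138 genes tested were called in either direction, 24.1% higher and 23.4% lower. With LPS+IFNg 2 fell (Mef2c and Golm1) and 0 rose, against 58.9% of all genes called, 29.5% higher and 29.4% lower, so that the share of members that fell was near that of all genes. With IL4 the same 2 genes fell, Golm1 only while IL4 replicate 2 was in the fit, and 0 rose, against 17.2% of all genes called, 9.89% higher and 7.33% lower. A call is a Benjamini-Hochberg adjusted p below 0.05 in limma, fitted on log2(value + 1) over all 15 libraries, and log2 fold changes below are on that scale, on which low genes appear to change less than they do. Folds given without "log2" are ratios of group means. Olfml3 and Cx3cr1 passed the filter on low values (10 or more in at least 3 libraries) only through the TGFb libraries, so they had to differ once tested, and the count over the other 5 genes is 2 higher. The libraries of a stimulus and of untreated cells did not overlap for 5 of the 7 genes with TGFb (46.4% of all genes), 4 with IL4 (23.0%) and 2 with LPS+IFNg (50.1%). The 5 with TGFb include Olfml3 and Cx3cr1, which had to differ once tested, beside Golm1, Selplg and Csf1r. The 3 comparisons share the untreated libraries. The median log2 fold change of the 7 was 0.90 with TGFb, -0.11 with LPS+IFNg and 0.04 with IL4, beside medians over all genes of 0.01, 0.00 and 0.00. Over the 5 genes that did not need the TGFb libraries to pass the filter, the medians were 0.21, -0.16 and 0.04.

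**Figure D1:**
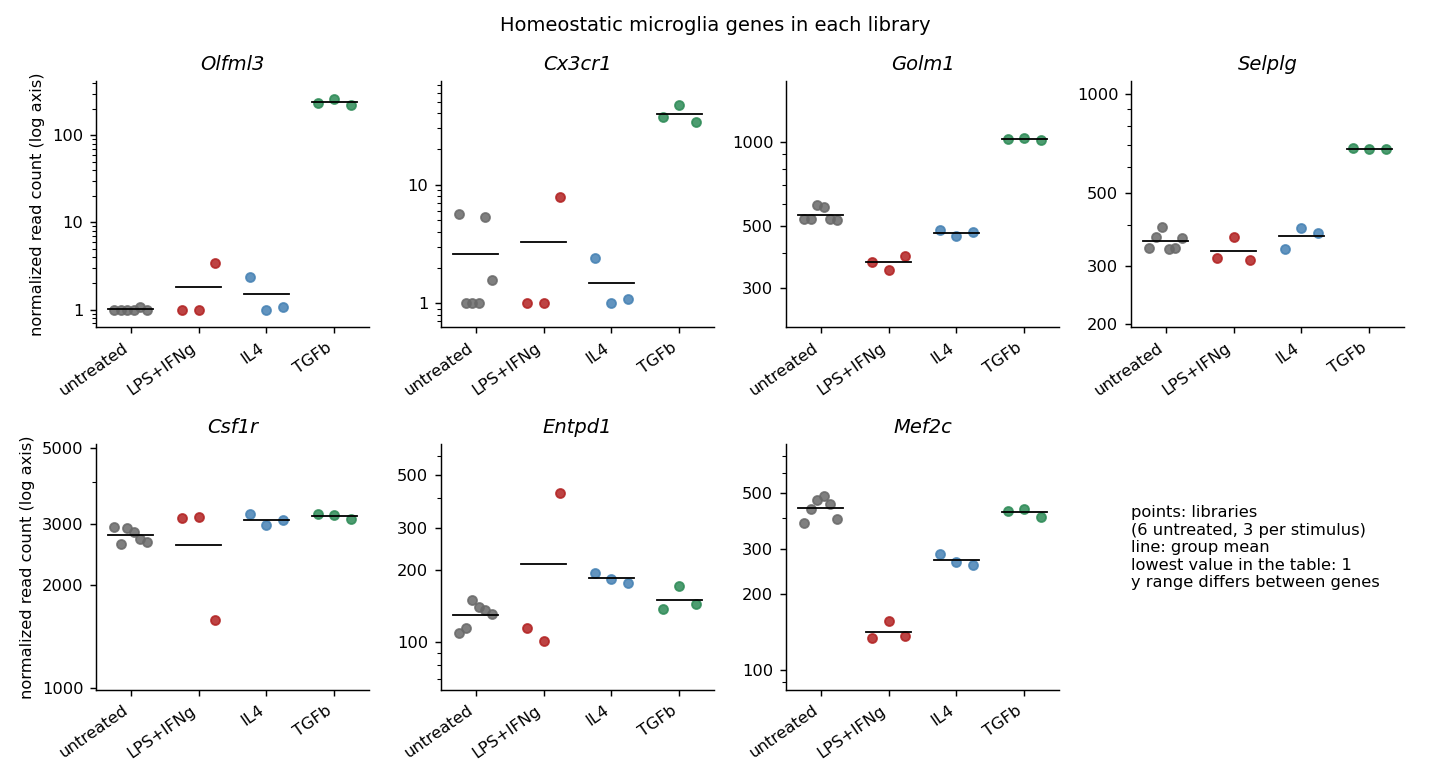
Normalized read count (log axis, with its own range in each panel) of each gene in each library, by group, with the group mean as a line. Olfml3 and Cx3cr1 stand near the lowest value of 1 in every group but TGFb, and 1 LPS+IFNg library lies apart for Csf1r (1581) and Entpd1 (421).

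**Figure D2:**
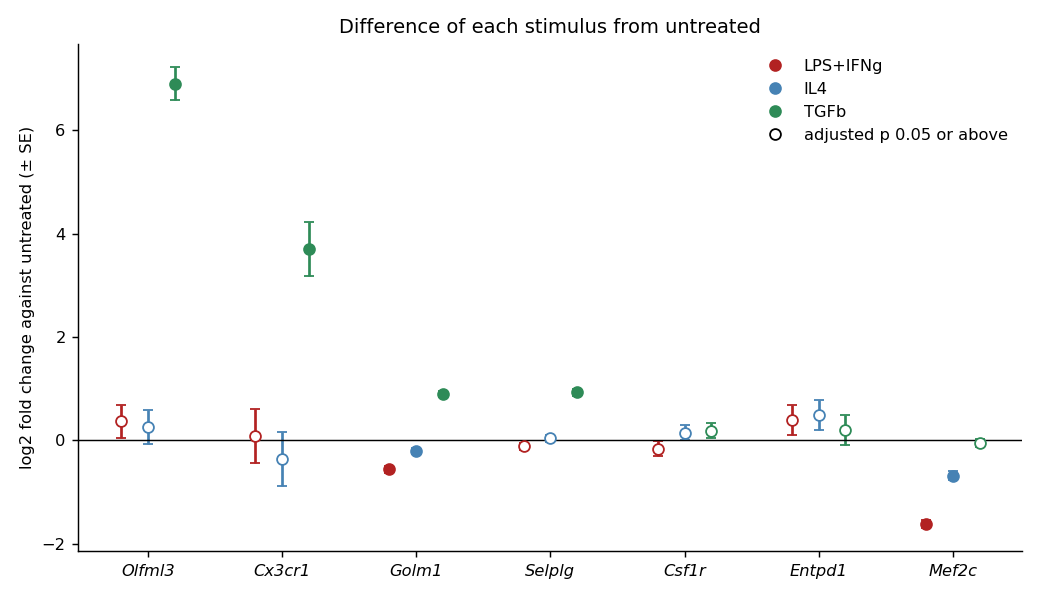
Log2 fold change of each stimulus against untreated cells (y axis, with the standard error) for the 7 genes, filled where the adjusted p was below 0.05. Filled points above 0 are all from TGFb, and those below 0 are Golm1 and Mef2c with LPS+IFNg or IL4.

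Olfml3 encodes a secreted olfactomedin-like glycoprotein that in the brain is largely a product of microglia. It was at the lowest value, 1, in 5 of the 6 untreated libraries and at 1.08 in the other, from 1 read. The LPS+IFNg libraries were at 1, 1 and 3.39, and the IL4 libraries at 2.39, 1 and 1.08. The TGFb libraries were at 235, 263 and 221, far above all the others and with no overlap. Olfml3 was the first of 11138 genes by log2 fold change with TGFb (6.90, SE 0.32, adjusted p = 5.58e-12). It was tested only because of its TGFb values, so the rank and p-value describe the gap and are no separate support for it. In reads the gap was 867 with TGFb against 1 in the untreated group, a depth-adjusted ratio of 1314 with a 95% exact counting interval of 235 to 51977. Taking the most reads that the untreated values at 1 allow, 3, the ratio was 438 (149 to 2129). These intervals cover counting error only. Against untreated cells the differences with LPS+IFNg (0.37, interval -0.30 to 1.03) and IL4 (0.26, interval -0.40 to 0.93) did not pass, and at 3 and 6 reads in the whole group they were not detectable at this depth.

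Olfml3 lies on chromosome 3 at 103722222 to 103738001 on the minus strand in GRCm38, with no overlapping gene in GENCODE M21. Its promoter is printed because no other tested gene had a larger log2 fold change with TGFb. It gives the 250 bases before the RefSeq start (GRCm38.p6, chr3:103738002-103738251, minus strand), with the only match to the 11 motifs searched in capitals, an E-box (CANNTG, read on both strands).

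Olfml3: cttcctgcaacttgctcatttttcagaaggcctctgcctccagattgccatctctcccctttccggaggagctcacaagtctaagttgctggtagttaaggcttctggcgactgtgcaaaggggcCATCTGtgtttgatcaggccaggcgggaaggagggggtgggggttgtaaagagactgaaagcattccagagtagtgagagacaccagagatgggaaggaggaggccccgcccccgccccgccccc

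An E-box is in 66.2% of the 32851 RefSeq promoters of this length. The SMAD box (CAGACA, in 17.1% of promoters) and the SMAD palindrome (GTCTAGAC, in 0.167%), motifs named for the factors that carry the TGF-beta signal, had no match in this window. A match or its absence describes these letters only. Of the 7 genes 5 had an entry, with 8 promoters in all, and neither SMAD motif matched any of the 8.

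The genes nearest to Olfml3 in profile were sought over the 15 libraries, by the root mean square difference of centred log2 values. For each member 9032 of the 11138 tested genes were compared, so nearest, here and below, means nearest among these. A gene of the rest could not be found nearest, whatever its profile. For Olfml3 they were Cyp4f18 (0.84), the integrin gene Itgb5 (1.05) and the myosin gene Myo7a (1.07). The size of the Olfml3 profile itself was 2.71. Cyp4f18 went from 6.8 ± 1.4 (SD, n = 6) untreated to 262 ± 19.3 (n = 3) with TGFb. It was at 8.41 or below outside TGFb, so, like Olfml3, it passed the filter on low values only through the TGFb libraries. A high level with TGFb was thus needed for Cyp4f18 to be compared at all. Of the olfactomedin family 3 other genes were in the table, and none of the 3 was called with TGFb, where 47.5% of all genes were. Olfm1 (1578 ± 103 untreated) fell with LPS+IFNg to 966 ± 209 and with IL4 to 1054 ± 7.01. Lphn1, an adhesion receptor with an olfactomedin domain, fell with LPS+IFNg from 333 ± 23.6 to 134 ± 40.3, and its call with IL4 (251 ± 1.68) was lost without any 1 of the IL4 libraries.

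Cx3cr1 encodes the receptor of fractalkine, a chemokine that neurons display to microglia. Its untreated values ran from 1 to 5.66 with a median of 1.28, and the LPS+IFNg libraries were at 1, 1 and 7.9. The IL4 libraries were at 2.39, 1 and 1.08, and the TGFb libraries at 37.7, 47 and 33.8. The TGFb libraries were all above every other library, while the other groups overlapped. The log2 fold change with TGFb was 3.70 (SE 0.52, adjusted p = 1.05e-05), the 13th highest of all genes tested. Cx3cr1 too was tested only because of its TGFb values, so its rank and p-value are no separate support for the rise. In reads the gap was 139 with TGFb against 12 untreated, a depth-adjusted ratio of 17.6 (9.74 to 34.8). With LPS+IFNg (0.09, interval -1.0 to 1.18) and IL4 (-0.36, interval -1.45 to 0.73) neither a rise nor a fall was detectable at this depth.

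In the 250 bases before its RefSeq start, Cx3cr1 was the only gene of the 5 with a match to the MEF2 box, which 3.2% of promoters hold on either strand. The 30 bases around it (GRCm38.p6, chr9:120068344-120068373, minus strand) are shown with the box in capitals because MEF2C is itself a member of the set.

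Cx3cr1: gtcacagcatCTAAAGATAGggtaccacac

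Whether MEF2 factors act on Cx3cr1 was not tested. With TGFb the values of Mef2c lay within its untreated range. Its paralogs Mef2a (log2 0.74) and Mef2d (log2 0.37) were called higher, as was Hdac9 (log2 1.47), a repressor of MEF2 factors. Genes nearest to Cx3cr1 in profile were the potassium channel gene Kcna3 (0.66), Prss46 (0.66) and Smad7 (0.70), an inhibitor of TGF-beta signalling, with a profile size of 1.66 for Cx3cr1. Of 6 other genes tested from the fractalkine axis, 3 rose with TGFb and 0 fell, beside 24.1% and 23.4% of all genes tested. Those that rose were Ctss, a protease of microglial lysosomes (2721 ± 151 to 4755 ± 179), Gnai2, a G protein subunit (2421 to 3108), and the shedding protease gene Adam17 (1658 to 1861). The call of Adam17 was lost with each library rescaled to the same total and without TGFb replicate 2. With LPS+IFNg 2 rose (29.5% of all genes), Ctss to 8948 ± 1597 and Adam17 to 3179. Another 2 fell (29.4% of all genes), Gnai2 to 1997 and Adam10 from 941 to 679. With IL4 only Gnai2 was called, at a log2 fold change of 0.13, where 17.2% of all genes were called. This call was lost under both other scalings and without any 1 of the untreated or IL4 libraries. The ligand gene Cx3cl1 was not in the table.

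Golm1 encodes a type II membrane protein of the Golgi, also called GP73. Its untreated values ran from 527 to 596 with a median of 529. The TGFb libraries stood at 1018, 1027 and 1015, above every other library. The LPS+IFNg libraries were at 373, 348 and 391, and the IL4 libraries at 482, 460 and 476, both groups below every untreated library. The change was 1.86-fold up with TGFb (log2 0.90, SE 0.06, adjusted p = 3.78e-10). It was 1.48-fold down with LPS+IFNg (log2 -0.56, SE 0.06, adjusted p = 7.84e-08). With IL4 it was 1.16-fold down (log2 -0.21, SE 0.06, adjusted p = 0.0126), and the IL4 call was lost without IL4 replicate 2 (log2 -0.19, adjusted p = 0.0764). Golm1 was thus the member called in all 3 comparisons with untreated cells.

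Golm1 lies on chromosome 13 at 59634626 to 59675811 on the minus strand and shares 29.3% of its exon bases with Naa35 on the opposite strand. Whether strand was used in counting is unknown, so reads of the 2 genes cannot be told apart over that stretch. Naa35, a subunit of an N-terminal acetyltransferase, was at 550 ± 49.8 untreated, 425 ± 32.7 with LPS+IFNg, 505 ± 22.7 with IL4 and 532 ± 13.7 with TGFb. It fell with LPS+IFNg (log2 -0.37, adjusted p = 0.000243), as Golm1 did, and its differences with TGFb (-0.04) and IL4 (-0.12) did not pass. The only motif of the 11 in the Golm1 promoter was the ETS core (GGAAGT, in 19.7% of promoters and part of the longer PU.1 box), shown in capitals within 30 bases (GRCm38.p6, chr13:59675794-59675823, minus strand) because ETS factors such as PU.1 are central to macrophage genes.

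Golm1: tgcggctccgccGGAAGTgcccgcccgccc

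Genes nearest to Golm1 in profile were Angptl2 (0.09), Alox5ap (0.10) and Emp1 (0.12), with a profile size of 0.49. Among members the closest pair was Golm1 and Selplg (0.21). Of 16 other Golgi membrane genes 7 rose and 1 fell with TGFb (24.1% and 23.4% of all genes tested). With LPS+IFNg 8 rose and 2 fell (29.5% and 29.4%), and with IL4 3 rose and 0 fell (9.89% and 7.33%). Furin, a convertase that cleaves the TGF-beta precursor among other proteins, rose from 787 ± 65.2 to 3813 ± 210 with TGFb. It also rose to 2635 ± 1523 with LPS+IFNg, where the mean was 1756 without replicate 3. No list, here or below, was tested against the shares of all genes called.

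Selplg encodes PSGL-1, a mucin-like ligand of the selectins on leukocytes. Untreated values ran from 339 to 393 with a median of 353. The TGFb libraries stood at 682, 679 and 681, above every other library (681 ± 1.83). TGFb replicate 2 held 318 reads of Selplg. Counting error at that number is larger than this SD, which is therefore no measure of precision. The LPS+IFNg libraries were at 318, 367 and 313 and the IL4 libraries at 338, 392 and 377, both overlapping the untreated range. The rise with TGFb was 1.90-fold (log2 0.93, SE 0.07, adjusted p = 3.8e-09). With IL4 the difference was 0.04 (interval -0.10 to 0.19). With LPS+IFNg it was -0.11 (interval -0.25 to 0.04, adjusted p = 0.202), but it passed when each library was rescaled to the same total (-0.23, adjusted p = 0.0153), a scaling that itself moved the median of all genes by -0.13, and under quantile normalization (-0.17, adjusted p = 0.0423).

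Selplg lies on chromosome 5 at 113818536 to 113832644 on the minus strand and overlaps no other gene. Its nearest profiles were those of Naa60 (0.07), Zmiz1 (0.08) and Gse1 (0.09), with a profile size of 0.39. Of 12 other genes for PSGL-1 glycosylation, selectins and partners 3 rose and 4 fell with TGFb (24.1% and 23.4% of all genes tested). With LPS+IFNg 5 rose and 1 fell (29.5% and 29.4%), and with IL4 3 rose and 0 fell (9.89% and 7.33%). B4galt1, a galactosyltransferase of the glycans that PSGL-1 carries, rose with TGFb from 616 ± 45 to 1529 ± 8.68. Tpst1, a tyrosine sulfotransferase that can modify PSGL-1, fell with TGFb (178 to 121) and rose with LPS+IFNg (to 339). Msn, which encodes the cytoskeletal linker moesin, rose with all 3 stimuli, from 6140 ± 368 to 11331 ± 578 with LPS+IFNg, 7014 ± 245 with IL4 and 10501 ± 122 with TGFb, though the call with IL4 was lost under both other scalings (log2 0.13 and 0.07) and without IL4 replicate 1 or 2.

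Csf1r encodes the receptor for CSF1 and IL34 on which microglial survival depends. It was the most abundant member in every group. The untreated libraries ran from 2626 to 2959 with a median of 2787. The IL4 libraries were at 3212, 2986 and 3092 and the TGFb libraries at 3223, 3206 and 3115, all above every untreated library. The LPS+IFNg libraries were at 3123, 3155 and 1581, so that 2 stood above the untreated range and replicate 3 below it. No comparison with untreated cells passed: the log2 differences were 0.15 with IL4 (interval -0.15 to 0.45, adjusted p = 0.531), 0.19 with TGFb (-0.11 to 0.49, adjusted p = 0.286) and -0.16 with LPS+IFNg (-0.45 to 0.14, adjusted p = 0.348).

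These outcomes depend on replicate 3 of LPS+IFNg. In this library 12.6% of the tested genes were at least 1.5-fold from the mean of the other 2 LPS+IFNg libraries, and Csf1r was 1.99-fold lower. The spread is shared by all 15 libraries in the fit, so this library also widened the error of the other comparisons. Without it Csf1r was higher with all 3 stimuli, by 0.17 with LPS+IFNg (adjusted p = 0.0034), 0.15 with IL4 (adjusted p = 0.00749) and 0.19 with TGFb (adjusted p = 0.00037), each a rise of 1.14-fold or less. With only the 2 groups compared in the fit, the calls for IL4 (adjusted p = 0.0175) and TGFb (adjusted p = 0.00057) were also made. That alternative was planned, and leaving out replicate 3 from the IL4 and TGFb comparisons was added after seeing the data.

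**Figure D3:**
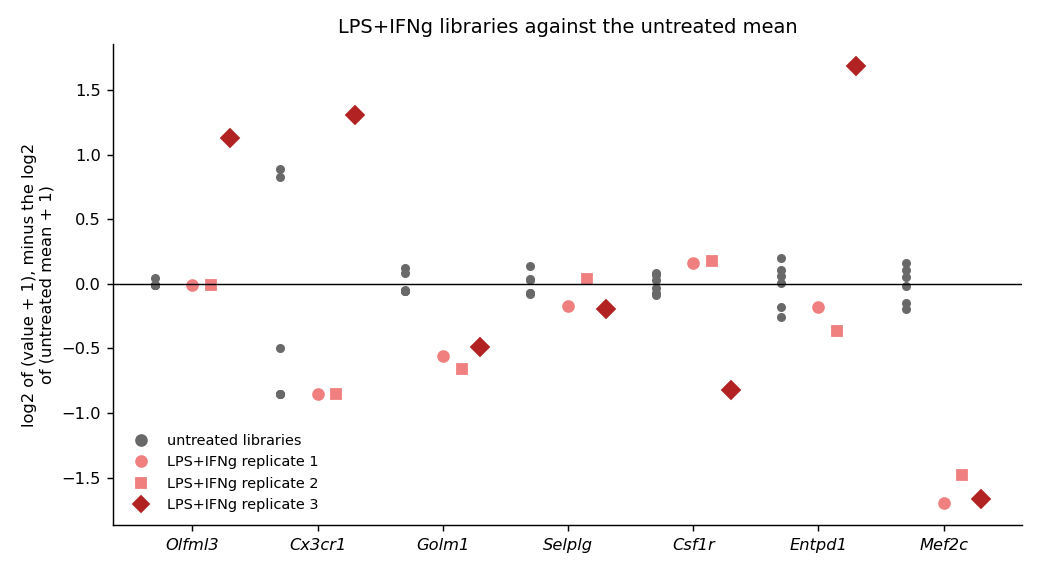
Difference of each LPS+IFNg library, and of each untreated library, from the untreated mean (y axis, log2 of value + 1) for the 7 genes. Replicate 3 (diamonds) lies apart from the other LPS+IFNg libraries for Olfml3, Cx3cr1, Csf1r and Entpd1, and close to them for Golm1, Selplg and Mef2c.

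For Golm1, Selplg and Mef2c the same library was within 1.09-fold of the mean of the others, and without it the fall of Golm1 and Mef2c with LPS+IFNg was still called and the difference of Selplg still was not. For Olfml3 and Cx3cr1 the reads of the LPS+IFNg group that show above the lowest value, 3 and 7, all came from replicate 3. Csf1r lies on chromosome 18 at 61100598 to 61132149 and shares 15.1% of its exon bases with Hmgxb3 on the opposite strand, which stood at 598 to 700 in the LPS+IFNg libraries and 620 to 696 in the untreated ones. Genes nearest in profile were AI427809, Rufy2 and Adnp (0.11 each), with a profile size of 0.25 for Csf1r that rested on replicate 3.

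All 22 other genes of the CSF1 receptor list (ligands, adaptors and signalling) were in the table. With LPS+IFNg 9 rose and 9 fell (29.5% and 29.4% of all genes tested). With IL4 4 rose and 3 fell (9.89% and 7.33%), and with TGFb 8 rose and 3 fell (24.1% and 23.4%). Csf1, the ligand made by the cells themselves, rose with LPS+IFNg from 1144 ± 41.6 to 4351 ± 1019 (4950, 4929 and, in replicate 3, 3175) and with IL4 to 1683 ± 76.1, and was at 1165 ± 31.2 with TGFb. Il34, the other ligand, was at 6.51 ± 3.05 untreated and rose with TGFb to 21.6 ± 2.15 (81 reads against 42, a depth-adjusted ratio of 2.92, interval 1.99 to 4.35). Each ligand thus rose with at least 1 stimulus, while the group means of the receptor stayed within 1.14-fold of untreated. With LPS+IFNg that mean joins libraries at 3123, 3155 and 1581 and describes none of them. Src, a kinase downstream of the receptor, rose with LPS+IFNg from 904 ± 45 to 3703 ± 1093, and Ets2, a transcription factor that CSF1 signalling can activate, from 219 ± 20.4 to 847 ± 59.4. With TGFb the rises included Plcg2 (2189 to 3669), Syk (1001 to 1642) and Inpp5d (2122 to 3302), which encode a phospholipase, a kinase and a lipid phosphatase of immune receptor signalling.

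Entpd1 encodes CD39, a surface enzyme that degrades extracellular ATP and ADP. Its untreated values ran from 109 to 150 with a median of 134. The IL4 libraries stood at 194, 184 and 176, above every untreated library. The TGFb libraries were at 137, 171 and 144, overlapping the untreated range, and the LPS+IFNg libraries at 115, 101 and 421. Replicate 3 of LPS+IFNg was thus 3.88-fold above the mean of the other 2 and above every library of the other groups. The IL4 difference was 1.41-fold (log2 0.50, interval -0.09 to 1.10, adjusted p = 0.257), and it passed without that library (adjusted p = 0.00126) and with only the 2 groups in the fit (adjusted p = 0.00201). With TGFb it was 0.21 (interval -0.39 to 0.81) and did not pass in any alternative. With LPS+IFNg it was 0.39 (interval -0.21 to 0.99), but without replicate 3 it turned to -0.26 (adjusted p = 0.0868) and without replicate 2 it was called higher (0.76, adjusted p = 0.0261).

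Entpd1 lies on chromosome 19 at 40612366 to 40741602 on the plus strand, and 1 of its 2 RefSeq promoters held an E-box. Its nearest profiles were Fhl3 (0.21), Serpinb6b (0.23) and Faah (0.26), with a profile size of 0.48, and all 3 share the high value of LPS+IFNg replicate 3 (for Fhl3 543, beside 178 and 175). Of 16 other genes for extracellular nucleotides and adenosine 5 rose and 3 fell with TGFb (24.1% and 23.4% of all genes tested). With LPS+IFNg 4 rose and 5 fell (29.5% and 29.4%), and with IL4 2 rose and 3 fell (9.89% and 7.33%). P2ry6, a receptor for UDP that drives microglial phagocytosis, rose with TGFb from 13.4 ± 4.02 to 112 ± 12.2. Pnp, which splits inosine and guanosine, rose under all 3 stimuli, from 391 ± 16.4 to 1643 ± 76.7 with LPS+IFNg, 463 ± 22.8 with IL4 and 619 ± 7.6 with TGFb. Entpd6 and Entpd7, from the same enzyme family, fell with LPS+IFNg (279 to 155 and 181 to 107). Nt5e, for the enzyme CD73 that acts after CD39, was not in the table.

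Mef2c encodes a transcription factor of the MADS box family that restrains the microglial response to inflammatory signals. Its untreated values ran from 381 to 488 with a median of 442. The LPS+IFNg libraries were at 134, 156 and 137, the lowest of all, and the IL4 libraries at 287, 267 and 260, between them and the untreated range. The TGFb libraries, at 424, 433 and 402, lay within the untreated range. Mef2c fell 3.06-fold with LPS+IFNg (log2 -1.61, SE 0.08, adjusted p = 5.01e-12) and 1.61-fold with IL4 (log2 -0.68, SE 0.08, adjusted p = 1.21e-05). In rank it was the 142nd lowest log2 fold change of 11138 genes with LPS+IFNg and the 136th lowest with IL4. With TGFb the difference was -0.05 (interval -0.22 to 0.12, adjusted p = 0.655).

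Mef2c lies on chromosome 13 at 83504034 to 83667080 on the plus strand with no overlapping gene. Of its 3 RefSeq promoters, the first held a GAS (TTCNNNGAA, in 7.02% of promoters), a motif named for activation by interferon gamma. It is shown in capitals within 30 bases (GRCm38.p6, chr13:83503866-83503895, plus strand) because interferon gamma was part of the stimulus with the largest fall of Mef2c.

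Mef2c: ttccaagattaTTCTTGGAAatgtaatttt

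None of the other 4 genes with an entry had a GAS match. Genes nearest to Mef2c in profile were Rasgrp3 (0.16), Npcd (0.16) and Dock8 (0.22), with a profile size of 0.63. Of 22 other microglial and myeloid transcription factor genes 6 rose and 10 fell with LPS+IFNg (29.5% and 29.4% of all genes tested). With IL4 5 rose and 2 fell (9.89% and 7.33%), and with TGFb 13 rose and 4 fell (24.1% and 23.4%). Hdac9, a class IIa deacetylase that represses MEF2 factors, fell with LPS+IFNg from 104 ± 25.2 to 8.52 ± 2.11 and rose with TGFb to 283 ± 21.4. Mef2d fell with LPS+IFNg from 3359 to 2243, and rose with TGFb to 4340 and with IL4 to 3850, though its IL4 call was lost under quantile normalization and without IL4 replicate 2. Mef2a rose with TGFb from 263 ± 9.08 to 440 ± 4.36, and its call with LPS+IFNg (309 ± 9.17) was lost under both other scalings and without LPS+IFNg replicate 2. Both paralogs were thus called higher with TGFb, where Mef2c was not called. Sall1, the factor most specific to microglia, was not in the table.

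In place of Siglech, a list of sialic acid-binding lectins, the adaptor DAP12 and other receptors was counted, of which 8 genes were in the table. Several of them, such as Trem2, Clec5a and the gene of DAP12 itself, are not of the Siglech family. With LPS+IFNg 2 rose and 5 fell (29.5% and 29.4% of all genes tested). With IL4 1 rose and 2 fell (9.89% and 7.33%), and with TGFb 3 rose and 2 fell (24.1% and 23.4%). Tyrobp, the adaptor DAP12 through which Siglech signals, fell with LPS+IFNg from 2900 ± 132 to 1864 ± 181 and did not pass with IL4 or TGFb. Siglec1 rose with TGFb from 275 ± 18.8 to 1740 ± 55.7 and with LPS+IFNg to 485 ± 141, and its lower call with IL4 (206 ± 13.6) was lost without any 1 of the IL4 libraries. Trem2, a lipid receptor that uses the same adaptor, rose with TGFb from 1693 ± 55.1 to 2822 ± 200 and fell with LPS+IFNg to 1040 ± 149.

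Set directly against each other, TGFb cells had higher levels of 5 of the 7 genes than LPS+IFNg cells (Olfml3, Cx3cr1, Golm1, Selplg and Mef2c), where 62.6% of all genes were called and 30.8% were lower with LPS+IFNg. The same 5 were higher with TGFb than with IL4, where 39.7% of all genes were called and 19.0% were lower with IL4. Olfml3 and Cx3cr1 were tested only because of their TGFb values, and over the other 5 genes the count was 3 in both comparisons. Golm1 was 2.75-fold lower with LPS+IFNg than with TGFb (log2 -1.46, SE 0.06, adjusted p = 5.98e-13), and Mef2c 2.95-fold lower (log2 -1.56, SE 0.09, adjusted p = 5.9e-11). Between LPS+IFNg and IL4 2 genes were called, against 57.7% of all genes called and 28.8% lower with LPS+IFNg: Golm1 (log2 -0.35, adjusted p = 0.00014) and Mef2c (log2 -0.93, adjusted p = 1.15e-07), both lower with LPS+IFNg. Without LPS+IFNg replicate 3 Entpd1 was also lower with LPS+IFNg than with IL4 (log2 -0.76, adjusted p = 6.99e-05) and than with TGFb (log2 -0.47, adjusted p = 0.0063), where the value with it was 0.18. These comparisons share their groups with those above and are not independent of them.

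Levels per kilobase of the longest annotated transcript gave an order of the genes, described for untreated cells and TGFb. In untreated cells Csf1r came first (594 per kilobase), then Selplg (154), Golm1 (139), Mef2c (69.5) and Entpd1 (30.9), with Cx3cr1 and Olfml3 below 1 per kilobase, where the lowest value of the table sets their order. Selplg and Golm1 overlapped between libraries, and the other neighbours among the first 5 did not. With TGFb the order was Csf1r (677), Selplg (294), Golm1 (258), Mef2c (66.9), Olfml3 (43.8), Entpd1 (35.7) and Cx3cr1 (8.79), so Olfml3 reached the level of Entpd1, with which it overlapped. The longest transcript need not be the one these cells make.

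The other homeostatic microglia genes were counted from a list of 55, of which 35 were in the table and tested. With TGFb 24 rose and 1 fell (median log2 fold change 0.59), beside 24.1% and 23.4% of all genes tested (median 0.01). The gene that fell, Smad3 (log2 -0.37), carries the TGF-beta signal to the nucleus and was picked out after its value was seen. With IL4 10 rose and 2 fell (median 0.13), beside 9.89% and 7.33% of all genes (median 0.00). With LPS+IFNg 9 rose and 18 fell (median -0.25), beside 29.5% and 29.4% (median 0.00). Without LPS+IFNg replicate 3 the last counts were 9 and 19 of 34 tested. Of the 35 genes, 2 passed the filter only through the TGFb libraries (Gpr56 and Sgk1) and Gpr34 needed both the untreated and the TGFb libraries, while C1qb passed only through LPS+IFNg. The list was compiled with earlier results of these data known.

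**Figure D4:**
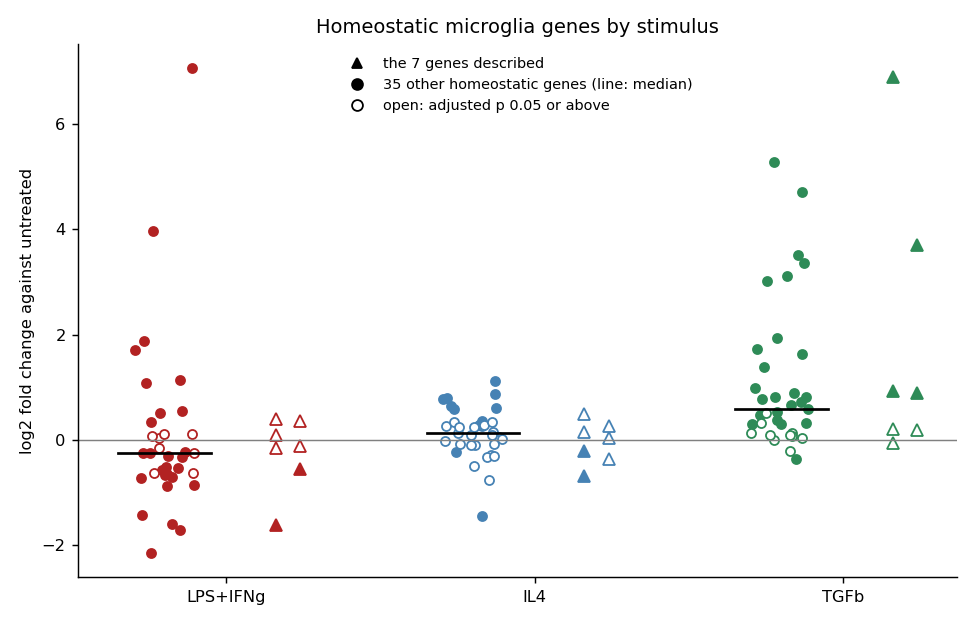
Log2 fold change against untreated cells (y axis) of the 7 genes described (triangles) and of 35 other homeostatic genes (circles, with the median as a line), by stimulus. Most circles with TGFb lie above 0 (24 called higher and 1 lower), while with LPS+IFNg 18 of them were called lower. Of all genes tested, 24.1% were called higher and 23.4% lower with TGFb, and 29.4% lower with LPS+IFNg.

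Tmem119, a surface protein used to tell microglia from other macrophages, was at 7.62 ± 3.42 untreated and rose with TGFb to 82.3 ± 7.26 (315 reads against 41, a depth-adjusted ratio of 11.6, interval 8.39 to 16.5). It fell with LPS+IFNg (1.86 ± 1.37) and with IL4 (2.03 ± 0.903), at 5 and 9 reads in the whole group, and the IL4 call was lost without IL4 replicate 2 (adjusted p = 0.0858). Itgb5 rose with TGFb from 21.4 ± 6.66 to 562 ± 10.2, the lysosomal protease gene Ctsd from 31487 ± 1074 to 97385 ± 2630, and Rnase4 from 544 ± 36.4 to 1792 ± 30.3. Gas6, a bridge between dying cells and their receptors on microglia, fell with LPS+IFNg from 2405 ± 80.1 to 756 ± 170. C1qb, a subunit of the complement protein C1q, rose with LPS+IFNg from 1.03 ± 0.0477 (2 reads in the untreated group) to 351 ± 323. Its LPS+IFNg values were 154, 175 and, in replicate 3, 724. C1qb was tested only because of these values, so it had to differ, and its direction beside that of Gas6 carries no separate weight.

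Of 18 TGF-beta response genes tested, 16 rose with TGFb and 0 fell (median log2 fold change 1.14), beside 24.1% and 23.4% of all genes. With LPS+IFNg 6 rose and 5 fell, beside 29.5% and 29.4% of all genes. Skil, a repressor that TGF-beta induces, rose from 33.8 ± 7.03 to 759 ± 12.1 with TGFb and to 117 ± 7.11 with LPS+IFNg. Itgb5, Tgfbr1 and Tgfbr2 are on this list and on the list of homeostatic genes, and each was called higher with TGFb in both counts.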

How the data were processed

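RNA was sequenced from 15 libraries of stem cell-derived mouse microglia. Per the labels' protocols, TRIZOL was used for extraction and the TruSeq RNA kit of Illumina for library preparation. TopHat2 2.0.3, Partek 6.6, R 3.0.2, DESeq2 and the build mm10 were used, per the submitters' processing notes. Annotation, counting rule and strandedness are not given in the sources used here. The deposited values are a normalized signal, which their steps show to be reads divided by 1 factor per library, with values below 1 set to 1. At least 99.96% of the values above 1 gave whole reads within 0.01 reads, and the recovered reads were used for depth and for ratios of low genes only. A value of 1, found in 276 genes, stands for up to 2 reads in 1 library, up to 1 read in 6 and 0 reads in 8. Every gene reached 11.1 or more in some library.

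All 15 columns were used and 0 left out, grouped by the stimulation in the labels. Replicate numbers follow accession order and only name the libraries. limma 3.58.1 in R 4.3.3 was fitted on log2(value + 1) with the trend option over all 15 libraries, for the 11138 genes that reached 10 in 3 or more libraries, and p-values were adjusted over all genes within a comparison. It was tested on simulated data. Intervals of log2 fold changes are 95% intervals from that fit. Positions and transcript lengths came from GENCODE M21 and promoters from RefSeq (GRCm38.p6). The motifs and the members and lists were chosen with earlier results of these data known. Besides the members, up to 4 called genes of each list by size of the moderated statistic and direct partners could be named. So could the 3 nearest profiles among the 9032 genes compared. Some genes that this rule took are not reported here.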

Additional observations from a re-analysis of the deposited data

Results flagged for a closer look

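In the untreated group the Olfml3 value of replicate 5 stood apart from the other 5 libraries, which were all at the lowest value of the table, so that its gap over the range of the group was 1.00. The value was 1.08, from 1 read. A test of this kind picks out about 1 group in 20 by chance, and a group in which all other values are tied gives this result for any single read.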

How the results depend on the processing

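The 20 calls of member genes in the 6 comparisons gave 370 values under the alternatives, those chosen after seeing the data included. Of these 369 kept their direction and call, the exception being Golm1 with IL4 without IL4 replicate 2. Calls of Olfml3 and Cx3cr1 are among the 20, and these genes had to differ from the TGFb group once tested. Settings in which either gene failed the filter gave no value for it and are not in the 370. Of 407 values for the 22 member differences that were not called, 361 stayed so, 23 passed in the same direction and 23 changed sign, most of them for Csf1r and Entpd1 or for genes of a few reads. With array weights the log2 difference of LPS+IFNg from untreated was 0.15 for Csf1r, -0.58 for Cx3cr1 and -0.16 for Entpd1. With the same weights it was -0.21 for Olfml3 and -0.17 for Cx3cr1 from IL4, and -0.29 for Entpd1 from TGFb. With each library rescaled to the same total Selplg with IL4 was at -0.02.

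Leaving out 1 library at a time, LPS+IFNg against untreated ranged from -0.01 to 0.56 for Olfml3, -0.33 to 0.17 for Csf1r, -0.63 to 0.45 for Cx3cr1 and -0.26 to 0.76 for Entpd1. LPS+IFNg against IL4 ranged from -0.27 to 0.35 for Olfml3, -0.48 to 0.02 for Csf1r, -0.27 to 0.81 for Cx3cr1 and -0.76 to 0.26 for Entpd1. Entpd1 ranged from -0.47 to 0.56 for LPS+IFNg against TGFb, and Selplg from 0.00 to 0.11 for IL4 against untreated. Genes called with IL4 ranged from 1130 (without IL4 replicate 2) to 2749 (without LPS+IFNg replicate 3), beside 1917 with all libraries.

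Leaving out 1 library at a time, members called ranged from 1 to 4 with IL4, 2 to 5 with TGFb, 2 to 4 for LPS+IFNg against IL4, 3 to 6 for LPS+IFNg against TGFb and 3 to 5 for IL4 against TGFb. With only the groups compared in the fit it was 4 with IL4. Without the 3 libraries of fewest reads it was 2 with TGFb, 3 for LPS+IFNg against TGFb and 3 for IL4 against TGFb. Without any 1 of the TGFb libraries Olfml3 and Cx3cr1 failed the filter and were not tested, which lowers these counts. With no filter and a TGFb library left out, a pair of choices made after seeing the data, both genes stayed called. The median of all genes shifted by -0.13 with LPS+IFNg when totals were made equal.

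No paired analysis was possible because the labels give no replicate numbers. The planned edgeR and DESeq2 fits were not run, since the deposited values are not counts. Depth limits Olfml3 and Cx3cr1 outside TGFb, where a group holds at most 12 reads of either gene.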
